A study of Mus musculus with 6 samples.

Results

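Tip-like endothelial cells were chosen by which genes had a UMI, a count of 1 captured transcript molecule, in a cell. Barcodes with fewer than 500 UMIs, fewer than 300 genes or over 20% mitochondrial UMIs were dropped, and the rest are called kept cells. It was called endothelial with UMIs of at least 3 of the 8 genes Pecam1, Cdh5, Kdr, Flt1, Cldn5, Egfl7, Emcn and Tie1, and with fewer than 5 UMIs of the leukocyte genes Ptprc and Tyrobp together. It was called tip-like with at least 2 of the 5 tip genes Esm1, Apln, Angpt2, Kcne3 and Pgf, and with strictly more of these than of either of 2 other sets. Those sets were the venous genes Ackr1, Selp, Vwf, Nr2f2 and Sele, and the arterial genes Gja4, Gja5, Hey1, Sema3g and Bmx. The rule found 285 tip-like cells among 2069 endothelial cells and 54911 kept cells. It also gave 662 venous-like cells, 338 arterial-like cells and 784 endothelial cells in none of the 3 classes.

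Tip cells are the endothelial cells at the front of a sprouting vessel. They extend filopodia toward vascular endothelial growth factor (VEGF), migrate, secrete new basement membrane and express the Notch ligand Dll4, which restrains tip behaviour in the stalk cells behind them. Esm1 encodes endocan, a secreted proteoglycan, Apln encodes the peptide apelin, and Angpt2 encodes angiopoietin-2, which antagonizes the receptor Tek. Pgf encodes placental growth factor, a ligand of the receptor Flt1, and Kcne3 encodes a potassium channel subunit.

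The tissue was pancreatic tumour from KPC mice, whose Pdx1-Cre transgene switches on KrasLSL.G12D/+ and P53LSL.R172H/+ in cells of the pancreatic lineage. Pdx1-Cre is known to act in the epithelial lineage and not in endothelium, and all 6 mice carried the 3 alleles. For 2 days 3 mice received IPI-926, which blocks Smoothened and so Hedgehog signalling, by daily oral gavage at 40 mg/kg, and 3 mice received its vehicle, 5% w/w hydroxypropyl-beta-cyclodextrin in water. Tumours were taken 2 hours after the last dose, dissociated with enzymes, freed of red blood cells by lysis and made into 1 droplet library each, so tip-like cells were obtained without a sort. The libraries held between 100810942 and 174929328 UMIs and between 6613 and 16426 kept cells, and no more than 59 barcodes were shared by any pair. Replicate numbers only name the libraries, and p-values measure the spread between these libraries.

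Some of the cells met the rule with few endothelial UMIs. Of the 285 cells, 217 had at least 20 UMIs of the 8 endothelial genes per 10000 UMIs, and these are called endothelial-rich below. Their median was 56.6 endothelial UMIs per 10000, and 96.8% of them carried at least 5 of the 8 genes. The same 8 genes chose these cells, so both values follow in part from the choice. The other 68 cells had a median of 2.34 per 10000, and 43 of them carried only 3 or 4 of the 8 genes. They were also deep, with a median of 69696.5 UMIs against 11476 UMIs in the endothelial-rich cells. At least 5 of the 10 epithelial markers were present in 48 of these 68 cells, against 37 of the 217 endothelial-rich cells. By library those 37 cells were 0 of 20, 3 of 14 and 0 of 44 endothelial-rich cells with IPI-926. With vehicle they were 19 of 36, 6 of 69 and 9 of 34, so this marker content differed between the groups within the endothelial-rich limit. At least 5 of the 8 fibroblast markers were present in 25 of the 68, of which 18 came from IPI-926 replicate 3, and in 12 of the 217. A doublet score marked 30 of the 68 and 28 of the 217. The 68 cells held 56.5% of all UMIs of the tip-like cells, and between 62.9% and 74.7% in the 3 IPI-926 libraries against between 33.4% and 56.9% in the 3 vehicle libraries. For that reason the counts of genes called are given for the cells of the rule and for the endothelial-rich cells, a limit set after the data were seen. Levels of single genes and summed lists are those of endothelial-rich cells unless the rule is named. The venous-like and arterial-like cells were endothelial-rich in 91.7% and 94.4% of cells.

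**Figure D1:**
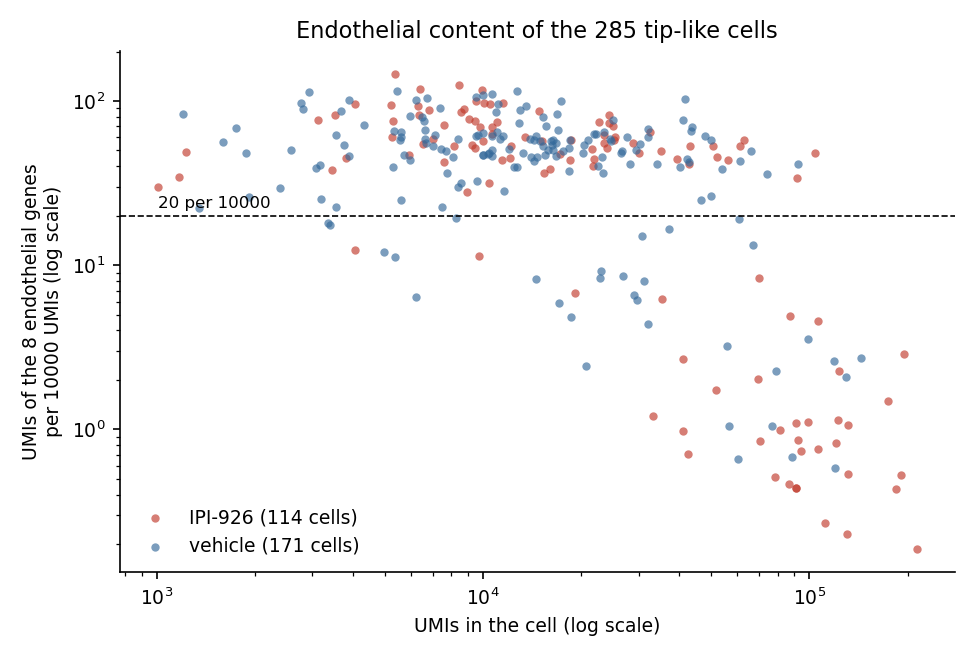
Each point is 1 of the 285 tip-like cells, with its UMIs on a log axis against the UMIs of the 8 endothelial genes per 10000 UMIs on a log axis, in red for IPI-926 and blue for vehicle. The dashed line at 20 per 10000 separates the 217 endothelial-rich cells from the 68 others, which lie toward the right, at a median of 69696.5 UMIs.

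The tip genes differed in how many tip-like cells carried them. Among the 217 endothelial-rich cells Esm1 had a UMI in 193, Apln in 175, Angpt2 in 172, Kcne3 in 79 and Pgf in 68. The shares were 88.9% for Esm1 (exact binomial 95% interval 84.0 to 92.8), 80.6% for Apln, 79.3% for Angpt2, 36.4% for Kcne3 and 31.3% for Pgf. Esm1, Apln and Angpt2 together, without the other two genes, were the most common combination, in 56 cells. Exactly 2 tip genes were seen in 59 of these cells, 3 in 81, 4 in 59 and all 5 in 18. In the 68 endothelial-poor cells the order was another one: Kcne3 led with 43 cells and the combination of Kcne3 and Pgf alone was the most common, in 12 cells. Kcne3 also had a UMI in 41.0% of the 10098 cells gated by epithelial markers, at 149 CPM (the usual depth-scaled count unit, here over the summed UMIs of a group), and Pgf in 21.2% of the 3347 cells gated by fibroblast markers. Esm1 had a UMI in 0.690% of the 21593 leukocytes, whose median depth was 5757 UMIs. In the other 1482 endothelial-rich cells, at a median of 4645 UMIs, the shares were 17.5% for Esm1, 13.9% for Apln, 11.4% for Angpt2, 10.1% for Kcne3 and 2.29% for Pgf. These values chose the cells and describe them only.

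Cells near the limits of the rule were counted too. Of the 285 tip-like cells 113 had exactly 2 tip genes, and 249 had a UMI of at least 1 venous or arterial gene. Just outside the rule stood 61 endothelial cells with 1 tip gene and no venous or arterial gene, at a median of 3658 UMIs. A further 81 cells had at least 2 tip genes and as many venous or arterial genes, and another 81 had at least 2 tip genes and more venous or arterial genes. Among endothelial-rich tip-like cells Esm1 stood at 660 CPM with 3 or more tip genes and at 335 CPM with exactly 2. Outside the rule, endothelial-rich cells held 279 CPM of Esm1 in the ties and 90.6 CPM where venous or arterial genes were in the majority. Those with 1 tip gene and no venous or arterial gene held 267 CPM. Esm1 is itself a tip gene of the rule, so the order of these values follows in part from how the cells were grouped.

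On GRCm38, by the GENCODE vM21 annotation, the 5 tip genes lie on 5 chromosomes. Esm1 lies on chromosome 13 (113209659 to 113218098, plus strand), Apln on X (48025146 to 48034853, minus strand) and Angpt2 on 8 (18690263 to 18741562, minus strand). Kcne3 lies on chromosome 7 (100176502 to 100184869, plus strand) and Pgf on 12 (85166635 to 85177790, minus strand).

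One library stood apart in every cell type examined. In the endothelial-rich tip-like cells the 19 interferon-response genes of the list summed to 373, 697 and 5568 CPM in IPI-926 replicates 1, 2 and 3, against 378, 553 and 353 CPM in vehicle replicates 1, 2 and 3. The 10 genes of MHC class I presentation summed to 1564, 1837 and 11767 CPM with IPI-926 and to 1646, 1951 and 1468 CPM with vehicle. Cxcl9, a chemokine induced by interferon gamma, reached 1231 CPM in the tip-like cells of IPI-926 replicate 3 and at most 20.01 CPM in the other 5 libraries. The same library was high in its other endothelial cells, at 6493 CPM of interferon genes against 354 to 680 CPM elsewhere, and in its leukocytes, at 4174 CPM against 243 to 705 CPM. Its part in the treatment comparison is given by the counts without it.

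**Figure D2:**
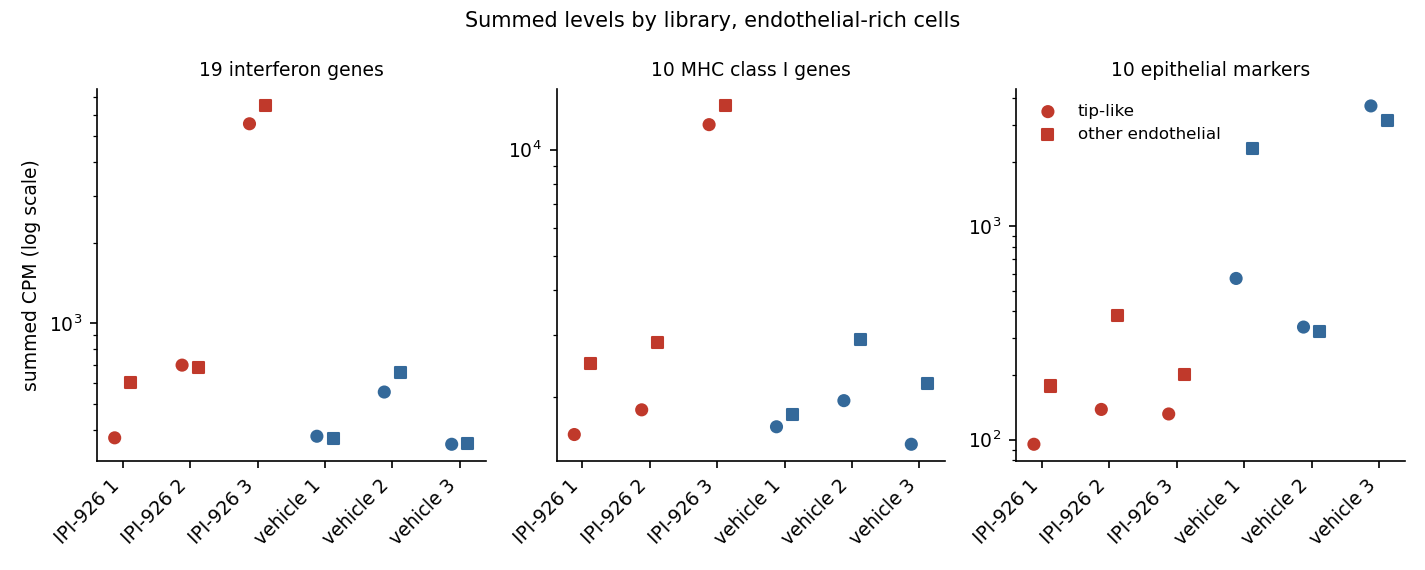
Summed CPM on log axes of 3 gene lists in endothelial-rich cells of each library, with circles for tip-like cells, squares for other endothelial cells, red for IPI-926 and blue for vehicle. The interferon and MHC class I lists are highest in IPI-926 replicate 3, at 5568 and 11767 CPM in tip-like cells, and the epithelial markers in tip-like cells lie between 95.2 and 139 CPM with IPI-926 and between 337 and 3666 CPM with vehicle.

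The first question was whether the share of tip-like cells changed after 2 days of IPI-926. Tip-like cells made up 14.2%, 21.2% and 14.3% of endothelial cells in the 3 IPI-926 tumours and 13.6%, 26.3% and 6.5% in the 3 vehicle tumours. The lowest and the highest share both belonged to vehicle tumours, so the groups overlapped. The mean was 16.5 ± 3.996% with IPI-926 and 15.5 ± 10.0% with vehicle (SD, n = 3 each), a difference of 1.07 percentage points with p = 0.8 in a two-sided exact permutation test, whose smallest possible p is 0.1. Among endothelial-rich cells the mean was 15.4 ± 3.76% with IPI-926 and 15.1 ± 11.04% with vehicle (exact permutation p = 0.9). With each cell thinned to 1500 UMIs the share was 7.03 ± 1.601% with IPI-926 and 7.14 ± 4.33% with vehicle (exact permutation p = 1). Endothelial cells of any kind were 2.36%, 1.57% and 2.78% of kept cells with IPI-926 and 4.67%, 3.34% and 9.15% with vehicle, which counts cells recovered by dissociation.

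**Figure D3:**
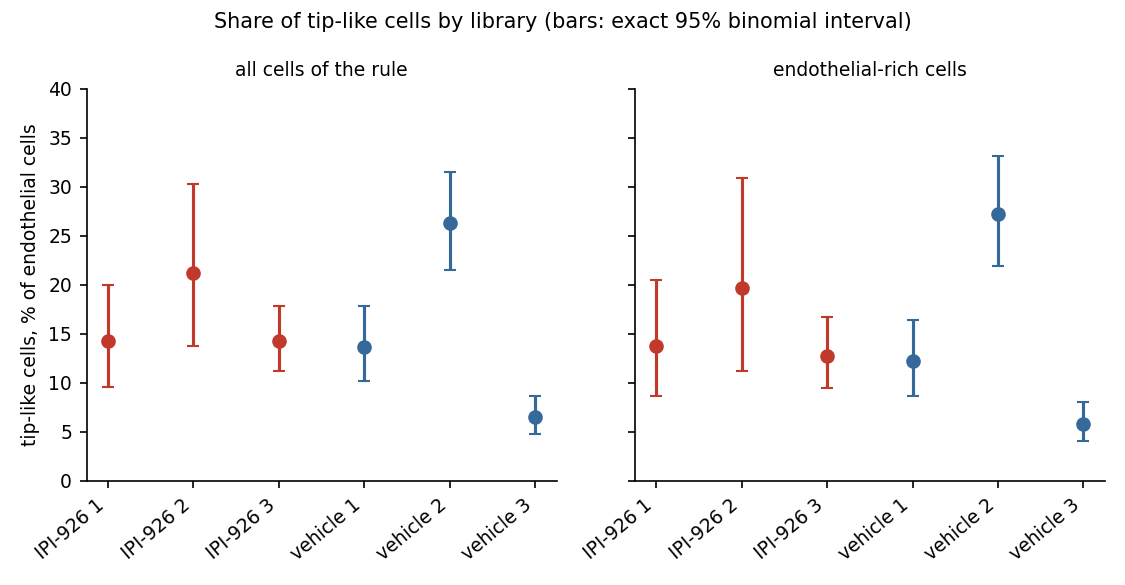
Tip-like cells as a percentage of endothelial cells in each library, for the cells of the rule on the left and for endothelial-rich cells on the right, with exact 95% binomial intervals that cover counting error only. The 3 IPI-926 tumours in red, at 14.2 to 21.2% under the rule, lie within the span of the 3 vehicle tumours in blue, at 6.5 to 26.3%.

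The level of the tip genes within the endothelial-rich tip-like cells is a description, since these genes chose the cells. CPM of single genes in tip-like cells and in the endothelial cells they are tested against are scaled by edgeR's TMM factors from here on, while sums over lists and values in gated cells are not scaled. Esm1 stood at 802, 331 and 899 CPM with IPI-926 and at 604, 655 and 652 CPM with vehicle. Apln stood at 228, 437 and 776 CPM with IPI-926 and at 400, 576 and 561 CPM with vehicle, and Angpt2 at 234, 178 and 420 CPM with IPI-926 and at 307, 260 and 205 CPM with vehicle. In these 3 genes the IPI-926 libraries spread on both sides of the vehicle libraries. Kcne3 stood at 30.9, 78.1 and 33.1 CPM with IPI-926 and at 100, 55.6 and 27.1 CPM with vehicle. Pgf stood at 30.9, 72.1 and 56.4 CPM with IPI-926 and at 108, 107 and 175 CPM with vehicle, so that its groups did not overlap. Across all endothelial cells, which these genes did not choose, a test could be made. None of the 5 tip genes passed edgeR's quasi-likelihood test there at an adjusted p under 0.05, among 10579 genes tested in endothelial-rich cells, of which 0% were called, with 372 below 0.05 before adjustment. Neither DESeq2 nor limma-voom called any of the 5. Pgf had a log2 fold change of -0.66 in that test and Esm1 of -0.22, both with an adjusted p of 0.995. Under the rule, among 12593 genes of which 0% were called, Esm1 averaged 73.0 ± 25.6 CPM with IPI-926 and 134.5 ± 60.4 CPM with vehicle (SD, n = 3 each; log2 fold change -0.88, adjusted p = 0.622), and the other 4 did not pass either.

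**Figure D4:**
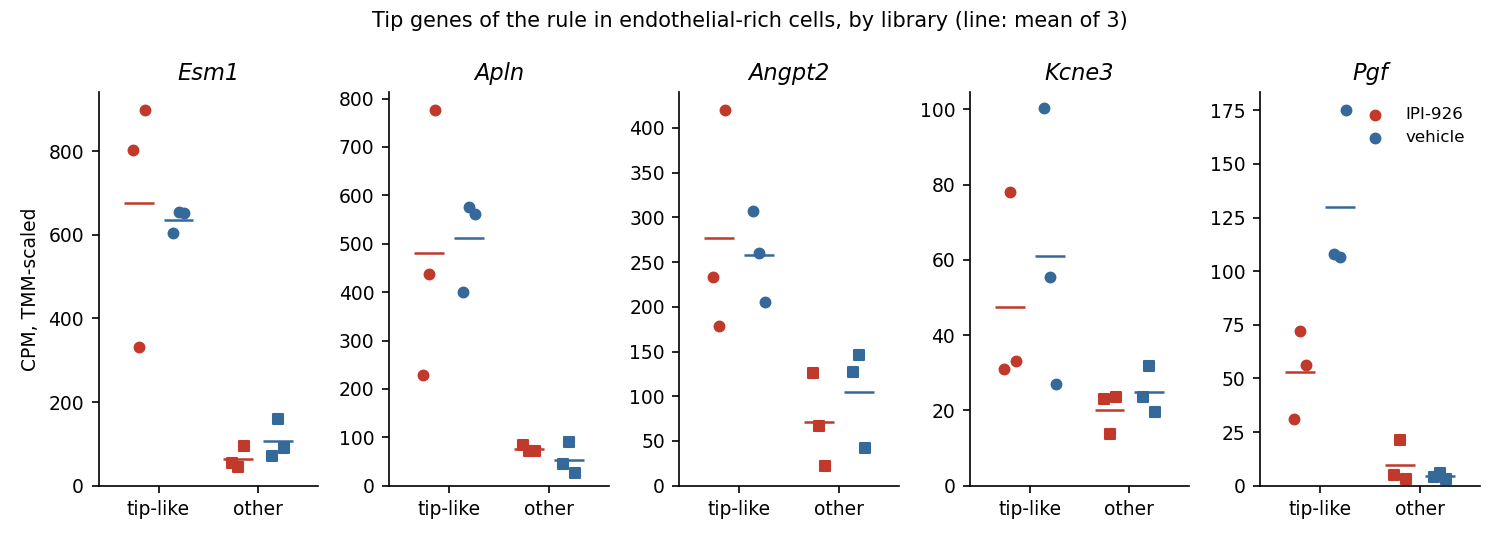
TMM-scaled CPM of the 5 tip genes in endothelial-rich tip-like cells (circles) and other endothelial cells (squares), 1 point per library and a line at the mean of 3, red for IPI-926 and blue for vehicle. Esm1 in tip-like cells spans 331 to 899 CPM with IPI-926 and 604 to 655 CPM with vehicle, and Pgf spans 30.9 to 72.1 CPM with IPI-926 and 107 to 175 CPM with vehicle.

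The second question was which genes differed in tip-like cells between IPI-926 and vehicle. One gene passed in the endothelial-rich cells: Tff1, a secreted trefoil peptide of mucous epithelium that is also one of the 10 epithelial markers. It had 0, 6.01 and 7.78 CPM with IPI-926 and 102, 105 and 127 CPM with vehicle, without overlap. The log2 fold change was -4.39 (SE 0.44, adjusted p = 0.000388, edgeR quasi-likelihood test), the only call among 6594 genes, or 0.0152%. The transcript was not particular to endothelium: leukocytes held 0.555, 174 and 80.8 CPM of Tff1 with IPI-926 and 548, 724 and 309 CPM with vehicle, before TMM scaling. Epithelial-gated cells held 48.3, 1933 and 3768 CPM of Tff1 with IPI-926 and 3342, 9522 and 1622 CPM with vehicle, so there the groups overlapped. In the other endothelial-rich cells, also before scaling, it stood at 0.657, 14.6 and 16.2 CPM with IPI-926 and at 309, 80.9 and 258 CPM with vehicle. All 10 epithelial markers together summed to 95.2, 139 and 132 CPM in the tip-like cells with IPI-926 and to 570, 337 and 3666 CPM with vehicle, and their part in the Tff1 result was not tested. The call was lost in 3 alternatives: Tff1 had a log2 fold change of -3.31 (adjusted p = 0.347) with equal cells per library, -4.40 (adjusted p = 0.712) at 40 endothelial UMIs per 10000, and -6.27 (adjusted p = 0.577) under the rule without the endothelial-rich limit. In the other 14 alternatives the adjusted p was at most 0.0181.

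Under the rule itself 0 of 9448 genes (0%) were called by edgeR, 722 had an unadjusted p under 0.05, and DESeq2 called 14. Without IPI-926 replicate 3 edgeR called 0 genes under the rule and 2 in endothelial-rich cells, both lower with IPI-926. After Tff1 the genes of smallest p in endothelial-rich cells were Tagln, Fbln2, Pdgfa and Igf1 on the lower side, and Timm50, Tmem158, Gtf3a, Tmem252 and Grina on the higher side. None of the 9 passed. Tagln, an actin-binding protein of smooth muscle, had 16.9, 44.1 and 11.7 CPM with IPI-926 and 146, 99.6 and 181 CPM with vehicle, with a log2 fold change of -2.49 and an adjusted p of 0.128. Pdgfa, a platelet-derived growth factor, averaged 64.4 ± 29.3 CPM with IPI-926 and 186 ± 14.3 CPM with vehicle (SD, n = 3 each; log2 fold change -1.55, edgeR adjusted p = 0.249). Tmem158 averaged 55.3 ± 2.67 CPM with IPI-926 and 19.9 ± 10.4 CPM with vehicle (SD, n = 3 each; log2 fold change 1.37, edgeR adjusted p = 0.704). In the rule cells Tagln had 8.59, 63.5 and 548 CPM with IPI-926 and 184, 106 and 179 CPM with vehicle, so its log2 fold change of 0.41 (adjusted p = 0.952) was positive through IPI-926 replicate 3 alone. Fbln2 had 232, 182 and 458 CPM there with IPI-926 and 270, 136 and 198 CPM with vehicle, at 0.53 (adjusted p = 0.776).

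Lists of endothelial genes held no call in the endothelial-rich cells. Of 19 other tip genes tested, 6 had a positive and 13 a negative log2 fold change, with a median of -0.10 beside 0.01 over all genes. Under the rule 1 of 20 was positive and 19 negative, at a median of -0.80 beside 0.04, in libraries where the endothelial-poor cells held more of the UMIs with IPI-926 than with vehicle; none passed. The Notch ligand Dll4 averaged 139 ± 62.1 CPM with IPI-926 and 106 ± 9.003 CPM with vehicle, and Cxcr4, the receptor of Cxcl12, averaged 78.5 ± 49.3 CPM with IPI-926 and 102 ± 17.5 CPM with vehicle (SD, n = 3 each). Nrp2, a co-receptor for VEGF-C, had a log2 fold change of -0.55 (adjusted p = 0.995) and the Notch ligand Jag1 of -1.11 (adjusted p = 0.961). The chemokine Cxcl12 stood at a log2 fold change of -1.35 (adjusted p = 0.700). The 18 basement membrane genes had a median of -0.15, and the 14 glycolysis genes a median of 0.30 with 12 positive. The 7 interferon genes tested were all positive at a median of 1.94, and none passed; their level in IPI-926 replicate 3 is given above. The 5 epithelial markers tested were all negative at a median of -3.58 and the 5 fibroblast markers all negative at a median of -1.75, whereas under the rule the 6 fibroblast markers tested were all positive at 1.99. The positive sign came from IPI-926 replicate 3: under the rule the 8 markers summed to 49.8, 108 and 8938 CPM with IPI-926 and to 1235, 941 and 369 CPM with vehicle. In endothelial-rich cells the 8 summed to 117, 117 and 455 CPM with IPI-926 and to 1298, 916 and 82.1 CPM with vehicle. There vehicle replicate 3 lay below every IPI-926 library, so the negative sign came from vehicle replicates 1 and 2.

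Most Hedgehog genes had too few UMIs in these cells to be tested, and Gli1 was near the floor of detection. Gli1, a transcriptional target of the pathway that IPI-926 blocks, had no UMI in endothelial-rich tip-like cells of any IPI-926 library, and 0, 0.772 and 3.02 CPM with vehicle, from 2 UMIs in all. Ptch1, the Hedgehog receptor and also a target, had 33.8, 24.0 and 40.9 CPM with IPI-926 and 32.9, 37.1 and 9.05 CPM with vehicle, and its fold change was 0.16 on the log2 scale (SE 0.41, adjusted p = 0.997 by edgeR). It was the only 1 of 10 Hedgehog genes with enough UMIs to be tested. Smo averaged 15.4 ± 6.80 CPM with IPI-926 and 9.97 ± 3.21 CPM with vehicle (SD, n = 3 each). The Wnt targets Axin2 and Lef1 averaged 4.93 and 5.74 CPM with IPI-926 and 4.87 and 5.89 CPM with vehicle, too low for the test. The homeobox gene Meox2 had 11.3, 38.1 and 89.5 CPM with IPI-926 and 12.5, 11.6 and 3.02 CPM with vehicle and was below the filter. In fibroblast-gated cells, the kind known to receive Hedgehog signals in pancreatic tumours, Gli1 stood at 0.582, 0.965 and 0.236 CPM with IPI-926 and at 2.51, 9.38 and 12.99 CPM with vehicle, before scaling. These values rest on 250, 42 and 2550 cells with IPI-926 and on 35, 434 and 36 cells with vehicle, and vehicle replicates 1 and 3 held only 398641 and 307879 UMIs, or a few Gli1 UMIs. The 36 cells of vehicle replicate 3 also held 25107 CPM of epithelial markers.

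The other endothelial cells gave 0 calls by edgeR among 12064 genes under the rule and 0 among 9981 in endothelial-rich cells, while 912 and 380 genes lay below 0.05 before adjustment. DESeq2 called 32 and 8. Whether tip-like cells responded unlike other endothelial cells was tested on the within-library difference of log2 CPM with limma. No gene passed among 11673 under the rule or 9648 in endothelial-rich cells, while 465 and 408 had an unadjusted p under 0.05. An edgeR interaction term called 0 and 2.

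Kdr, the main VEGF receptor, is a gene of the endothelial rule, so it was tested in cells chosen by the other 7 genes. In tip-like cells that were endothelial-rich by the other 7 genes it averaged 589 ± 97.1 CPM with IPI-926 and 534 ± 74.4 CPM with vehicle (SD, n = 3 each), a difference of 0.14 on the log2 scale (SE 0.22, adjusted p = 0.997 by edgeR). Without that limit the tip-like cells held 238, 172 and 178 CPM with IPI-926 and 382, 387 and 215 CPM with vehicle, a difference of -0.75 on the log2 scale (SE 0.29, adjusted p = 0.657 by edgeR). In all endothelial cells it was -0.85 under the rule, where the groups did not overlap, and -0.20 in endothelial-rich cells, with adjusted p of 0.531 and 0.994. None of the 8 endothelial genes passed in any of these 4 sets of cells.

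Tip-like cells were next set against venous-like cells of the same tumours, as pairs within each of the 6 libraries. Of 7366 genes tested in endothelial-rich cells 1187 were called (16.1%), 601 of them higher (8.16%) and 586 lower (7.96%), with edgeR's quasi-likelihood test and the library as a block. Under the rule 1763 of 9306 genes were called (18.9%), 9.57% higher and 9.37% lower. The 25 genes of the rule were left out, and the groups and the tests used the same cells, so genes that vary with the gate genes follow in part from the choice of cells. An adjusted p here says how regular a difference was across libraries. Tip-like cells were deeper than venous-like cells in 5 of 6 libraries, with library medians of 6862.5 to 24781.5 UMIs against 4186 to 12303 UMIs.

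Other tip genes were mostly higher in tip-like than in venous-like cells. Of the 20 on the list, 11 were higher and 2 lower, at a median log2 fold change of 0.82 beside -0.002 over all genes. Cxcr4 had a lowest, median and highest library of 25.8, 97.1 and 124 CPM in tip-like cells and 2.43, 4.39 and 11.8 CPM in venous-like cells. Its log2 fold change was 3.99 (SE 0.26, adjusted p = 4.76e-09), higher in 6 of 6 libraries and without overlap. Dll4 had 67.6, 110 and 181 CPM in tip-like cells and 27.98, 30.2 and 53.3 CPM in venous-like cells (log2 fold change 1.80, SE 0.20, adjusted p = 1.25e-05). Pdgfb, the growth factor by which endothelium recruits pericytes, had 208, 253 and 361 CPM in tip-like cells and 67.3, 107 and 115 CPM in venous-like cells (log2 fold change 1.43). Trp53i11 was higher by 2.24, Igfbp3, a binding protein of insulin-like growth factors, by 2.01, Lxn, a carboxypeptidase inhibitor, by 1.44, and Fscn1, which bundles actin in filopodia, by 1.23 on the log2 scale. Robo4, a guidance receptor of endothelium, was higher by 0.79 but stood at 0.05 in the cells of the rule (adjusted p = 0.860), where 7 of the 20 were higher and 4 lower at a median of 0.43. Nrp2 was lower, at 101, 184 and 253 CPM in tip-like cells and 206, 309 and 375 CPM in venous-like cells (log2 fold change -0.75), as was the small GTPase Rhoj (-0.56).

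In the endothelial-rich comparison 10 of 18 basement membrane genes were higher and 2 lower, at a median of 0.53. Col4a1, the main collagen IV chain, had 3151, 4542 and 5020 CPM in tip-like cells and 1886, 2897 and 3934 CPM in venous-like cells (log2 fold change 0.63, SE 0.07, adjusted p = 4.15e-06, higher in 6 of 6 libraries). Sparc, a matrix glycoprotein, had 4694, 5514 and 5702 CPM in tip-like cells and 2655, 3419 and 3778 CPM in venous-like cells (log2 fold change 0.70). The laminin chain Lama4 was higher by 1.05 on the log2 scale and Nid2, which links laminin to collagen IV, by 1.26. Col18a1 (-0.42) and Lama5 (-0.60) were lower. This list depended on the limit on endothelial content: in the cells of the rule 0 of 18 were higher and 2 lower, at a median of -0.08. There Col4a1 stood at -0.155, Col4a2 at -0.091, Nid1 at -0.33 and the adhesion molecule Mcam at -0.175, and Sparc, Lama4, Nid2 and Lama5 did not pass either.

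Genes of actin and migration were mostly higher in both sets of cells. Of 18, 13 were higher and 0 lower in endothelial-rich cells, at a median of 0.53, and 11 were higher and 0 lower under the rule. Vim, an intermediate filament protein, had 3498, 4312 and 6264 CPM in tip-like cells and 1515, 1954 and 3426 CPM in venous-like cells (log2 fold change 1.12, adjusted p = 1.46e-08; 0.52 with an adjusted p of 0.173 under the rule). Actb was higher by 0.74, the actin monomer binder Pfn1 by 0.72 and the GTPase Rhoc by 1.02 on the log2 scale. Of 14 glycolysis genes 8 were higher and 0 lower, at a median of 0.38, and under the rule 9 of 15 were higher and 0 lower.

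The Notch list was split. Dll4 and the endothelial receptor Notch4 were higher, Notch4 with 101, 120 and 183 CPM in tip-like cells and 17.7, 33.6 and 65.1 CPM in venous-like cells (log2 fold change 1.74, adjusted p = 1.91e-06). The target Nrarp was higher by 0.89, in 5 of 6 libraries, and did not pass under the rule (adjusted p = 0.444). The ligand Dll1 (-1.67) and the modifier Lfng (-0.84) were lower, and the other 4 of the 9 tested did not pass. In the angiopoietin and apelin list the angiopoietin receptor Tek had 44.97, 59.1 and 86.3 CPM in tip-like cells and 145, 184 and 258 CPM in venous-like cells (log2 fold change -1.60, SE 0.12, adjusted p = 1.81e-08). Ptprb, the phosphatase that acts on Tek, was lower too (-0.82). The apelin receptor Aplnr had 93.5, 256 and 424 CPM in tip-like cells and 277, 455 and 712 CPM in venous-like cells, at -0.84 with an adjusted p of 0.128 (rule cells -1.64, adjusted p = 0.0316). In the VEGF list 2 of 5 genes were lower, Nrp2 and Vegfc, and 0 higher.

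Venous genes that the rule did not use were lower in tip-like cells, 8 of 10 with a median of -1.67. Lrg1, a secreted glycoprotein of inflamed venules, had 105, 268 and 536 CPM in tip-like cells and 845, 1480 and 1619 CPM in venous-like cells (log2 fold change -2.41). The leukocyte adhesion molecules Icam1 (-2.13) and Vcam1 (-1.73) and the cytokine receptor subunit Il6st (-1.60) were also lower, although Vcam1 did not pass under the rule (adjusted p = 0.160). Of 10 MHC class I genes 6 were lower at a median of -0.71 and 0 higher, and under the rule all 10 were lower.

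Among all genes with at least 50 CPM in the higher group and one direction in every library, the 15 largest differences upward were led by Chga, Cxcr4 and Gpihbp1. Chga, chromogranin A, a secretory granule protein known from neuroendocrine cells, had 22.5, 80.04 and 231 CPM in tip-like cells and 0, 1.02 and 27.1 CPM in venous-like cells. Gpihbp1, which carries lipoprotein lipase to the capillary lumen, had 441, 748 and 1034 CPM in tip-like cells and 11.9, 49.7 and 74.2 CPM in venous-like cells (log2 fold change 3.96, SE 0.45, adjusted p = 0.00357). Prnd, a prion-like protein of developing endothelium, had 152, 379 and 622 CPM in tip-like cells and 19.5, 63.1 and 81.8 CPM in venous-like cells (log2 fold change 2.62). Nes, the intermediate filament nestin, had 206, 366 and 420 CPM in tip-like cells and 17.7, 58.3 and 165 CPM in venous-like cells (log2 fold change 2.39). The others, with log2 fold changes of 1.87 to 2.95, were Ildr2, Lcp2, Clca2, Dapk2, Kcnj2, Trp53i11, Rasgrp2, Ercc1, Igfbp3 and Stc1. Ildr2 and Rasgrp2 did not pass in the cells of the rule (adjusted p = 0.130 and 0.165).

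The 10 largest differences downward were led by Cmah, an enzyme of sialic acid synthesis, and Madcam1, the addressin of mucosal venules. Madcam1 had 0, 2.44 and 13.8 CPM in tip-like cells and 103, 171.9 and 669 CPM in venous-like cells (log2 fold change -5.75, SE 0.21, adjusted p = 1.02e-13). Cmah had 0, 0.766 and 5.73 CPM in tip-like cells and 71.9, 179 and 228 CPM in venous-like cells (log2 fold change -6.13). Slco2a1, a prostaglandin transporter, had 100, 117 and 262 CPM in tip-like cells and 752, 1031 and 1631 CPM in venous-like cells (log2 fold change -2.98). The others were Igfbp5, Adgrg6, Rassf9, Cd55, Slfn2, the receptor Il1r1 and the cyclooxygenase Ptgs1, at -4.64 to -2.71. Igfbp5 and Ptgs1 did not pass in the cells of the rule (adjusted p = 0.162 and 0.243).

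Markers of pericytes, the cells that wrap capillaries, were also present. In endothelial-rich tip-like cells the 10 markers summed to 675 to 974 CPM with IPI-926 and to 1213 to 1390 CPM with vehicle, all 10 with a UMI in every library. Across libraries they summed to 290 to 776 CPM in venous-like and 574 to 1398 CPM in arterial-like endothelial-rich cells. All other endothelial-rich cells together held 448 to 876 CPM. Of 8 tested against venous-like cells 3 were higher, Kcnj8 (1.91), Pdgfrb (1.53) and Mcam (0.62), the last of which endothelium also expresses. None of the 8 was called in the cells of the rule. Their part in the other differences was not tested.

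Against arterial-like cells the comparison rested on fewer libraries. With at least 10 cells of both classes required, endothelial-rich cells gave 4 pairs, from IPI-926 replicate 3 and the 3 vehicle tumours, and the rule gave 5. Of 5998 genes tested in endothelial-rich cells 1095 were called (18.3%), 539 higher (8.99%) and 556 lower (9.27%), while the rule called 1536 of 8104 (19%), 9% higher and 9.96% lower. Here too, and against all other endothelial cells below, the groups and the tests used the same cells. Genes that vary with the gate genes, the other arterial genes among them, thus follow in part from the choice of cells. Arterial genes outside the rule were lower, 9 of 10 at a median of -2.61. Efnb2, the arterial ephrin ligand, had a lowest, median and highest library of 65.2, 70.5 and 89.5 CPM in tip-like cells and 382, 468 and 834 CPM in arterial-like cells (log2 fold change -2.84, SE 0.16, adjusted p = 7.51e-08, lower in 4 of 4 libraries). The transcription factor Sox17 (-1.88) and Fbln5, of elastic fibres (-3.43), were lower as well.

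Notch genes set tip-like cells below arterial-like cells, the other way from the venous comparison for Dll4 and Notch4. Of 7 tested, 5 were lower and 0 higher, at a median of -0.82. Dll4 had 99.9, 116 and 188 CPM in tip-like cells and 169, 201 and 350 CPM in arterial-like cells (log2 fold change -0.82, SE 0.21, adjusted p = 0.0147). Jag1 had 25.7, 76.2 and 103 CPM in tip-like cells and 226, 283 and 320 CPM in arterial-like cells (log2 fold change -1.99). Jag2 (-1.97), Notch1 (-0.91) and Notch4 (-0.61) were lower too. The guidance receptor Unc5b, one of the other tip genes, had 31.2, 48.6 and 57.3 CPM in tip-like cells and 171.5, 182 and 280 CPM in arterial-like cells (log2 fold change -2.13, adjusted p = 4.24e-06).

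The other tip genes were split against arterial-like cells, with 4 of 20 higher, 6 lower and a median of 0.145, and under the rule 2 higher, 8 lower and a median of -0.68. Higher were Trp53i11 (3.07), Fscn1 (2.02), Lxn (1.05) and Pdgfb (0.62), although Pdgfb stood at -0.09 in the cells of the rule (adjusted p = 0.864). Cxcr4 overlapped, with 83.7, 101 and 118 CPM in tip-like cells and 47.4, 84.5 and 151 CPM in arterial-like cells (adjusted p = 0.554). Basement membrane genes gave 3 higher and 3 lower of 18, with Lamb2 (-1.62) and Col18a1 (-1.22) among the lower. Esm1, a gene of the rule, stood at 620, 682 and 913 CPM in tip-like cells and at 174, 195 and 775 CPM in arterial-like cells.

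Genes that respond to flow were lower than in arterial-like cells, 5 of 6 tested, with 1 higher. The transcription factor Klf2, induced by laminar shear, had 272, 320 and 484 CPM in tip-like cells and 721, 1079 and 1475 CPM in arterial-like cells (log2 fold change -1.63, SE 0.11, adjusted p = 3.31e-07). Klf4 was lower too (-1.72). Against venous-like cells Klf2 had a log2 fold change of -0.62. Tek (-0.87) and Ptprb (-1.59) were lower than in arterial-like cells as they were below venous-like cells. Aplnr did not pass against venous-like cells in endothelial-rich cells, though it was called lower there under the rule. Against arterial-like cells it was higher by 1.32 (edgeR adjusted p = 0.000521). It had 96.8, 231 and 410 CPM in tip-like cells and 37.3, 94.3 and 156 CPM in arterial-like cells. In the cells of the rule the value against arterial-like cells was 0.20 (edgeR adjusted p = 0.786). The homeobox gene Meox1 was higher by 2.09.

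The 15 largest differences upward against arterial-like cells were Chga, Dapk2, Gm46565, Prc1, Ube2c, Nox4, Lhx6, Lcp2, Nos2, Odc1, Trp53i11, Cenpf, Gpihbp1, Cdca8 and Angptl4. Odc1, the first enzyme of polyamine synthesis, had 250, 409 and 513 CPM in tip-like cells and 18.7, 40.4 and 53.8 CPM in arterial-like cells (log2 fold change 3.28, adjusted p = 1.37e-06). Nox4, an NADPH oxidase, had 49.9, 112 and 175 CPM in tip-like cells and 3.11, 7.97 and 32.3 CPM in arterial-like cells. Prc1, Ube2c, Cenpf and Cdca8 act in mitosis. Of the 20 G2/M genes only 7 had enough UMIs to be tested, which a gene can reach through the tip-like cells alone, and all 7 were higher; the tip-like cells had library medians of 6862.5 to 14055 UMIs in these 4 tumours against 3517 to 10219 UMIs in arterial-like cells. Against venous-like cells 18 of the 20 were tested, 4 were called higher and 0 lower, at a median of 0.79, and under the rule 13 of 20 were higher. The part of depth in these counts was not tested.

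The 10 largest downward were Adamts8, Stmn2, Npr3, St8sia6, Ptprr, Slc6a6, Slc45a4, Rassf9, Ssu2 and Vegfc. Stmn2, a microtubule regulator, had 0, 4.85 and 40.6 CPM in tip-like cells and 274, 778 and 1082 CPM in arterial-like cells (log2 fold change -6.17). Vegfc, the lymphatic growth factor, had 1.98, 5.25 and 21.9 CPM in tip-like cells and 86.1, 119 and 215 CPM in arterial-like cells (log2 fold change -4.16). Slc45a4 did not pass in the cells of the rule (adjusted p = 0.121), nor did Trp53i11 (0.0676) and Angptl4 (0.138) among the genes above.

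**Figure D5:**
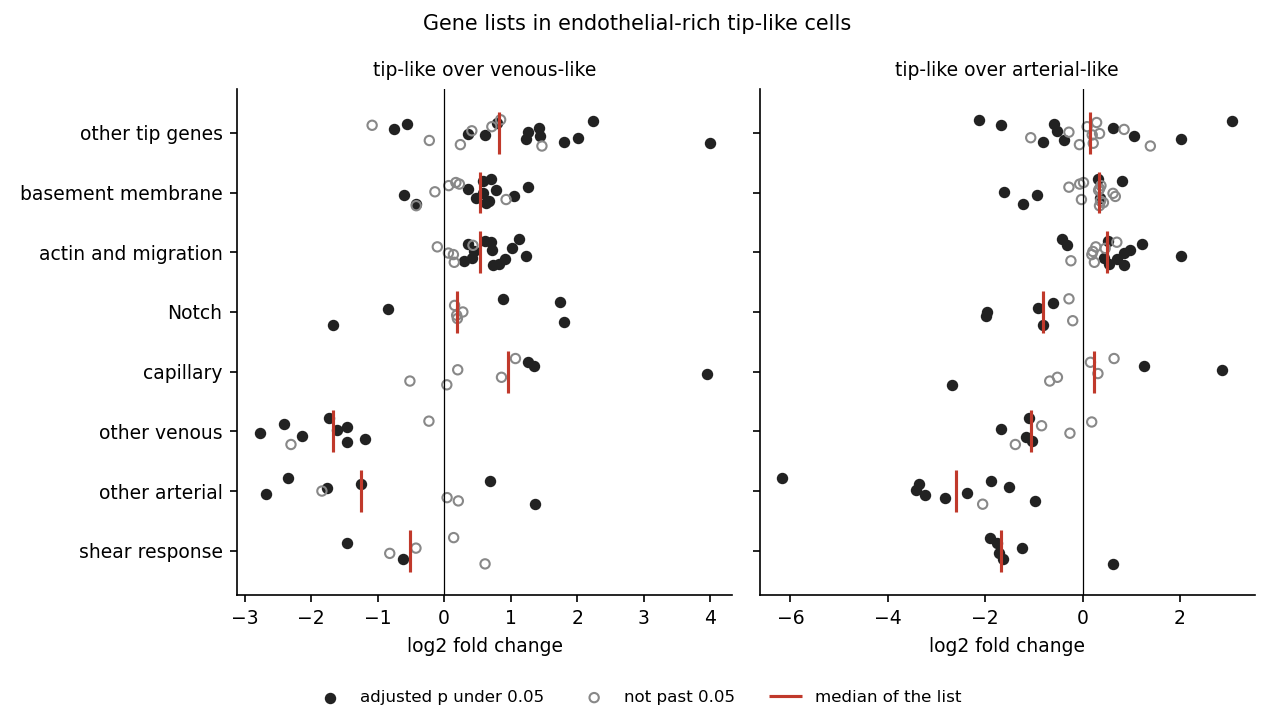
Log2 fold change of the tested genes of 8 lists in endothelial-rich cells, tip-like over venous-like on the left (6 libraries) and tip-like over arterial-like on the right (4 libraries), filled where the adjusted p was under 0.05, with a red line at the list's median. Other tip genes have a median of 0.82 over venous-like and 0.145 over arterial-like cells, and Notch genes medians of 0.20 and -0.82.

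Against all other endothelial cells 1465 of 8714 genes were called in endothelial-rich cells (16.8%), 763 higher (8.76%) and 702 lower (8.06%), with all 6 libraries as pairs. Under the rule 427 of 10707 genes were called (3.99%), 1.86% higher and 2.13% lower. The genes with the largest differences upward were Chga, Gpihbp1, Lcp2, Ildr2, Prnd, Dapk2, Clca2, Nox4, Ercc1, Nes, Trp53i11, Angptl4, Cxcr4, Cd276 and AA467197, at log2 fold changes of 1.501 to 4.50. Those downward were Ccl21a, Cmah, Madcam1, Mmrn1, Stmn2, Rassf9, Slc6a6, Serpinb6b, Eln and Slfn2, at -6.47 to -2.56. Ccl21a and Mmrn1 are markers of lymphatic endothelium, a class the rule does not separate: the 7 lymphatic markers summed to 85.8 to 266 CPM in tip-like cells and to 287 to 2034 CPM in other endothelial cells. Ildr2, Serpinb6b and Eln did not pass in the cells of the rule (adjusted p = 0.330, 0.386 and 0.236).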

How the data were processed

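Each of the 6 libraries, 3 IPI-926 and 3 vehicle, is 1 tumour profiled as single cells. The authors deposited 1 matrix of unnormalized UMI counts for each library, written by cellranger 6.1.2 per the file headers. Cell Ranger 2.1.1 and the mm10 build stand in the submitters' processing notes. Libraries held 100810942 to 174929328 UMIs. Members and gene lists were chosen with earlier results of these data known, and the limit of 20 endothelial UMIs per 10000 was added after the data were seen.

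UMI counts were summed per library and cell group with at least 10 cells and tested with edgeR 4.0.16 (TMM, filterByExpr, quasi-likelihood, Benjamini-Hochberg over all genes tested, genes of the rule left out, threshold 0.05) in R 4.3.3. Tip-like cells and other cells of a library come from the same animal, so the library was a block in those fits. The response difference used limma 3.58.1 on log2 CPM with a prior count of 2, and shares used an exact permutation test over 20 assignments. Intervals are exact binomial and cover counting error only. Alternatives were RLE factors, DESeq2 1.42.0, limma-voom, no filter, other cell filters and each library left out. The scripts were tested on simulated data. There the IPI-926 test in tip-like cells recovered 4% of 2-fold changes under the rule and 28% in endothelial-rich cells. Of 4-fold changes it recovered 59% and 89%. The response-difference test recovered 43% and 40% of 4-fold changes. Most 2-fold responses to IPI-926 in tip-like cells would thus go uncalled. In the simulation of these tests all libraries of a group shared 1 mean for each gene. A library that stands apart, as IPI-926 replicate 3 did in interferon genes, was not modelled, so recovery in the real libraries can be lower. Cells gated as leukocyte, fibroblast or epithelial were chosen by markers, with at least 5 UMIs of Ptprc and Tyrobp for leukocytes. Fibroblast and epithelial cells needed at least 5 markers of their own and fewer than 3 of the other kind.

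Genes named are the 15 highest and 10 lowest log2 fold changes among genes called, with at least 50 CPM in the higher group and 1 direction in every library. For IPI-926 against vehicle, where few passed, they are the 5 of smallest p in each direction with at least 10 CPM. Of the gene lists the members the results turn on are named, and not every tested member is printed. Python 3.11.15 with SciPy 1.17.1 and scikit-learn 1.9.0 was used for cells and the doublet score, which marked 5.29 to 13.1% of cells.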

Additional observations from a re-analysis of the deposited data

How the results depend on the processing

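With IPI-926 against vehicle in tip-like cells, edgeR called 0 genes under the rule; DESeq2 called 14, no filter on low counts 1, at least 3 tip genes 2 and endothelial-rich cells 1. In endothelial-rich cells the count of 1 became 4 with DESeq2, 47 without the filter, 2 with at least 20 cells per library, 2 with at least 3 tip genes and 0 at 40 endothelial UMIs per 10000. Leaving out 1 library gave 0 under the rule and 1 to 3 in endothelial-rich cells. Tff1 did not pass with equal cells per library, at 40 per 10000 or under the rule. In other endothelial cells DESeq2 called 32 under the rule and 8 in endothelial-rich cells, and leaving out 1 library gave 0 to 13, the 13 without vehicle replicate 2. The response difference stayed at 0 except for 2 genes with an edgeR interaction in endothelial-rich cells.

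Against venous-like cells the count of 1763 under the rule became 919 with at least 3 tip genes, 1006 without marked doublets, 474 without cells carrying 3 or more markers of another lineage, 148 after thinning to 1500 UMIs, 748 with equal cells and 444 without the library as replicate block. It ran between 1036 (without vehicle replicate 1) and 1467 with 1 library left out. The endothelial-rich count of 1187 became 606 with DESeq2, 424 with equal cells and 526 with no replicate block. Against arterial-like cells 1536 became 2357 without the filter, 688 without doublets, 0 without the other lineages, 81 after thinning and 856 with no block, and 934 (without vehicle replicate 2) to 1367 with 1 library left out. The endothelial-rich 1095 became 553 with DESeq2, 570 with no block and 590 (without vehicle replicate 1) to 904 with 1 library left out. Against all other endothelial cells 427 became 1053 with at least 3 tip genes, 257 without doublets, 150 after thinning, 87 with equal cells, 3 with no block and 1465 in endothelial-rich cells, and 220 (without vehicle replicate 3) to 497 with 1 library left out. The endothelial-rich 1465 became 863 with DESeq2, 620 with equal cells and 476 with no block. Thinning and the lineage limit also left fewer libraries than the counts they are set beside, since each needed at least 10 cells in both groups. After thinning, tip-like cells numbered 7, 5 and 27 with IPI-926 and 15, 29 and 19 with vehicle. Without the other lineages they numbered 17, 4 and 18 with IPI-926 and 2, 34 and 6 with vehicle. The causes were not tested.

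The difference in share, 1.07 percentage points, turned to -1.38 with at least 3 tip genes and -0.116 after thinning, and ran from -3.42 without vehicle replicate 3 to 6.47 without vehicle replicate 2; without IPI-926 replicate 2 it was -1.24. Genes that turned sign under the rule were Nid1 (-0.327), Mcam (-0.175), Col4a1 (-0.155) and Col4a2 (-0.091) against venous-like cells and Pdgfb (-0.086) against arterial-like cells. Of the called genes named, 40 of 60, 37 of 42 and 22 of 25 kept their call under the rule against venous-like, arterial-like and other cells; against arterial-like cells 46 were called, and Chga, Nos2, Npr3 and Ssu2 were not tested under the rule. Sign changes between values that both missed the threshold are not counted. Thinning and the lineage limit left too few libraries for IPI-926 against vehicle, and equal cells too few for arterial-like cells. No paired analysis was possible because the labels number no mice; the replicate numbers used here follow the order of the records and pair no IPI-926 mouse with a vehicle mouse. Depth limits genes with few UMIs, Gli1 among them.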
